A study of Drosophila melanogaster with 15 samples.

Results

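The adult head of a control fly, as 5 RNA-Seq libraries record it, was taken as the object of description. These are the libraries labelled *GMR/+*, 5 of 15 in the series, and they were chosen by that genotype label alone. The other 10 libraries carry an RNAi transgene against a component of the tri-snRNP, a particle of the spliceosome, and no comparison with them is made. Whole heads of *Drosophila melanogaster* were used, so that eye, brain, fat body, muscle and cuticle are mixed in each RNA sample. The *GMR/+* flies carried 1 copy of the eye driver *GMR* without an RNAi transgene. *GMR* is active in the cells of the developing and adult eye. Flies aged 3 to 5 days had been kept in a 12 h:12 h light:dark regime for 3 or more cycles. Per the labels they were frozen at ZT12, the time of lights off, where ZT counts the hours since lights on. The study's text gives ZT8 in 1 place and ZT12 in another, so the time of collection is not certain. The labels give neither the sex of the flies nor the number of heads in a library. They do not say whether the libraries came from separate cultures. The study describes its RNA-Seq data as 5 independent biological replicates, without saying how these were raised. How much of the spread between the libraries is technical is therefore not known.

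The compound eye of the fly is built of units that each hold a fixed set of photoreceptors. The outer photoreceptors use the opsin encoded by *ninaE*, the inner ones use *Rh3* or *Rh4* in an upper tier and *Rh5* or *Rh6* in a lower tier, and the simple eyes on top of the head, the ocelli, use *Rh2*. Light activates the opsin, which acts through a G protein and the phospholipase norpA to open the channels trp and trpl. Arrestins then switch the opsin off. Photoreceptors signal to the brain with histamine.

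Gene reads per library numbered 11843869 to 11933407. Reads of 15 mitochondrial genes took 1.12% to 2.20% of them and were left out of the levels. The level of a gene is given throughout as its reads per kb of merged exons per 1000000 nuclear gene reads, and groups of 5 values are listed for replicates 1 to 5 in that order. Of 13244 nuclear genes in the gene table, 8719 (65.8%) were detected, which here means at least 10 reads in each of the 5 libraries. Another 3946 genes stayed under 10 reads in all libraries, and 931 of these had no read in any of them. The median level of the detected genes was 11.2, and 655 of them reached 100 and 79 reached 1000. The reads were concentrated in few genes. The 251 genes with most reads held 50% of the nuclear reads, and the first 10 held 16.4% ± 0.26 (SD, n = 5).

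The photoreceptor opsin *ninaE* was the highest gene of the head. It had 956749, 989943, 980631, 935600 and 985951 reads, between 8.02% and 8.45% of the nuclear reads of a library. Its level was 51922, 53233, 52566, 50486 and 52806. The next gene, *Arr2*, which encodes the main arrestin of the eye, had a level of 15979, 15218, 16412, 15277 and 16225. The highest *Arr2* library thus stayed far under the lowest *ninaE* library. In the next place stood *Nplp2*, listed as a neuropeptide precursor, at 8622, 9367, 7167, 8870 and 7240. Among the genes after *Nplp2*, neighbours in the order overlapped, except *RpS29* and *RpL23A*. The elongation factor gene *Ef1alpha48D* had a median of 5490 (5144 to 5930), *retinin*, which encodes a protein of the corneal lens, 5339 (4599 to 5795) and *Nplp3* 5040 (4515 to 6209).

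The list of the 15 highest genes went on with ribosomal protein genes, an arrestin gene and others. *CG8343* had a median level of 4513, the arrestin gene *Arr1* 4298 and the ribosomal protein gene *RpS29* 4276. The ribosomal protein genes *RpL23A*, *RpS24* and *RpL37a* followed at 3533, 3252 and 3220. The last places belonged to *PebIII*, at 2924, the fatty acid desaturase gene *Desat1*, at 2876, and *RpL6*, at 2719. Of the 15 genes, *CG8343* had the widest range, with 5699, 4513, 2245, 3150 and 6691, and *RpL23A* had the next widest, with 1944, 2831, 3683, 3533 and 3580. The highest library was 2.98 times the lowest for *CG8343* and 1.89 times for *RpL23A*. The 81 detected genes for ribosomal proteins, of 85 in the table, summed to a level of 85887 ± 1894 (SD, n = 5), more than all opsins together.

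**Figure D1:**
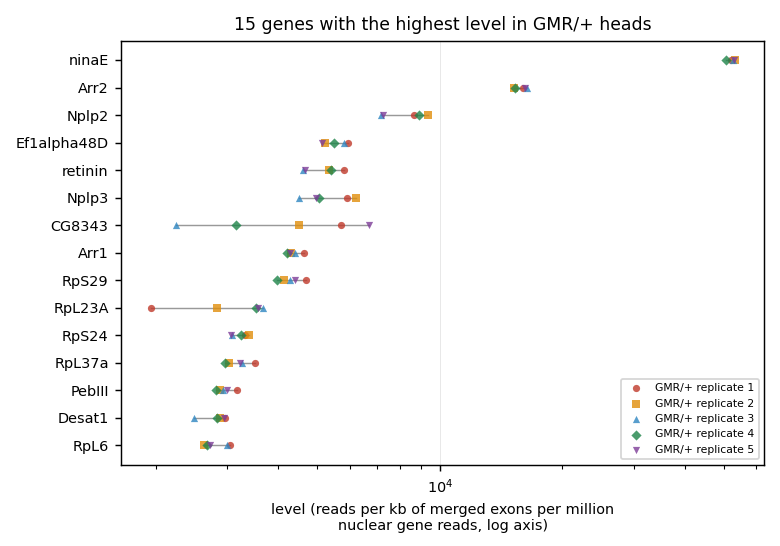
Level of the 15 highest genes (vertical axis) in reads per kb of merged exons per 1000000 nuclear gene reads (log axis), with 1 point for each *GMR/+* library and a line over their range. *ninaE* lies between 50486 and 53233 in every library, while *CG8343* spreads between 2245 and 6691.

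The ranking rests on a gene table that lacks some abundant genes. The splice junction with most reads at *Adh*, the gene of alcohol dehydrogenase, spans 2L:14616908-14616977 and had 32666, 30249, 34344, 33515 and 25642 reads. This junction is shared with the overlapping gene *Adhr*. The gene table gives both genes together only 89, 113, 140, 131 and 117 reads. Among 1031 genes or gene pairs with a junction of at least 1000 reads over the 5 libraries, 16 had more reads at that junction than in the gene table, and 11 of these 16 are named with overlapping genes. *stnA* with *stnB* and *Prx5* with *CG7215* had 0 reads in the gene table and 1821 and 1429 reads at a junction. *IM10* and *CG32857*, each named alone, also had 0 reads in the gene table, with 2437 and 1049 reads at a junction. Levels can therefore be understated, for overlapping genes and for some others. A count near 0 in the gene table may be such a loss, and *Adh* is missing from the order above.

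All 7 opsins were detected, and they summed to 55858 ± 1170 (SD, n = 5). Behind *ninaE* came the opsins of the inner photoreceptors. *Rh4* had a level of 1024, 1054, 1023, 973 and 997, and *Rh6* 1040, 964, 1008, 868 and 897. The ranges of *Rh4* and *Rh6* overlapped, so their order is not fixed by these libraries. *Rh3* had 744, 839, 839, 779 and 794, and *Rh5* 741, 767, 762, 709 and 762, and their ranges overlapped too. *Rh2*, the opsin of the ocelli, stood lower at 128, 129, 129, 137 and 135. *Rh7*, an opsin reported in a few neurons of the brain, was lowest at 6.63, 6.89, 7.13, 6.94 and 6.91. No other neighbours of the order overlapped: each *Rh4* and *Rh6* library lay above all of *Rh3* and *Rh5*, and these lay above *Rh2* and *Rh7*.

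All 19 phototransduction genes were detected, with a summed level of 24118 ± 655 (SD, n = 5). The arrestins *Arr2* and *Arr1* made up most of it. The channel gene *trpl* had 1054, 1140, 1135, 1039 and 1109, above the other channel gene *trp* at 594, 606, 585, 553 and 574 in every library. *ninaC*, which encodes a myosin of the rhabdomere, had a median of 690 (662 to 723). The G protein subunits *Gbeta76C* and *Ggamma30A* stood at 316 and 292, whereas the G protein alpha subunit gene *Galphaq* stood at 14.3 (13.8 to 14.7). *Galphaq* has 6910 bases of merged exons, and the level divides its reads by all of them. *norpA* had 65.2, 76.0, 68.3, 77.9 and 86.3. The lowest member was the receptor kinase gene *Gprk1* at 3.14 (2.43 to 3.44).

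Genes that surround the visual cycle were present at graded levels. Of the list of lens and rhabdomere genes, *retinin* was followed by the rhabdomere surface gene *chp* at 828 (781 to 871) and the spacer gene *eys* at 39.7 (35.9 to 43.1). The lens protein gene *Crys* was low, at 2.56 (2.19 to 2.60). All 7 genes for opsin folding and chromophore supply were detected, led by the chaperone gene *Cnx99A* at 120.3, the carotenoid-cleaving oxygenase gene *ninaB* at 96.5 and the opsin chaperone gene *ninaA* at 68.1. Of 8 eye pigment genes, 7 were detected. The pigment transporter gene *bw* led at 89.5 (86.0 to 95.3), followed by *pr* at 72.6 and *v* at 45.6, and *w* had 17.2 (16.4 to 18.5). The gene *cn* of the brown pigment pathway had 2, 4, 3, 5 and 2 reads and was not detected, although *v*, of the same pathway, was.

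Histamine genes were all detected. *t*, which encodes the enzyme that frees histamine from its conjugate with β-alanine, led at 147, 168, 147, 151 and 161. The synthesis gene *Hdc* had 37.2 (36.1 to 41.6) and the receptor genes *HisCl1* and *ort* 25.9 and 21.6. *e*, which encodes the enzyme that makes the conjugate, was uneven, at 34.4, 17.5, 10.9, 34.0 and 10.04. Replicates 1 and 4 were high and the other libraries low for *e*, while the level of *t* did not follow that split.

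Genes of neurons were plainly represented, at far lower summed levels than the opsins or the phototransduction genes. Eye and brain are mixed in each sample, so the neuronal sum cannot be assigned to the brain. All 14 neuronal genes were detected, and their sum was 687 ± 58.9 (SD, n = 5). The synaptic vesicle gene *nSyb* led at 164, 193, 196, 197 and 209, followed by the SNARE-binding gene *cpx* at 181 and the calcium sensor gene *Syt1* at 81.9. In all 3 genes replicate 1 or 3 was lowest and replicate 5 highest. In a bulk head, fewer cells of a type and less RNA per cell cannot be told apart, so the sums do not count cells.

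Every gene of transmitter identity, 12 of 12, was detected. *Gad1*, the enzyme of GABA synthesis, was highest at 77.5, 88.8, 81.0, 80.9 and 84.8. The acetylcholine transporter gene *VAChT* had 23.1, 26.5, 23.0, 25.8 and 30.1, and the glutamate transporter gene *VGlut* 21.6, 21.8, 20.1, 22.5 and 23.0. The lowest *VAChT* library stood only just above the highest *VGlut* library. The range of *VGlut* overlapped that of *ple*, which encodes the first enzyme of dopamine synthesis, at 19.9 (16.3 to 22.4). The GABA transporter gene *VGAT* had 17.8 and the monoamine transporter gene *Vmat* 16.8. *Cha*, the acetylcholine synthase gene that shares its first exon with *VAChT*, had 8.83 (8.25 to 9.16), and its level was below *VAChT* in every library. Gene counts can be understated for overlapping genes, and whether that touched this order was not tested. The octopamine enzyme gene *Tbh* had 10.1, and its partner *Tdc2* was lowest of the list at 2.14 (1.67 to 2.81). The serotonin genes *Trh* and *SerT* had 5.42 and 4.70, and the dopamine transporter gene *DAT* had 2.61.

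Of 30 neuropeptide genes on the list, 25 were detected. *Nplp2* and *Nplp3* are not on this list and stood higher, at medians of 8622 and 5040. Among the listed genes the insulin-like peptide gene *Ilp2* led at 226, 223, 216, 210 and 203. The myosuppressin gene *Ms* had 193, 194, 197, 166 and 197, and the corazonin gene *Crz* had 123, 125, 124, 100.1 and 120. Replicate 4 was the low library of both *Ms* and *Crz*. *Pdf*, the peptide of clock neurons, had 92.4 (83.4 to 103). The adipokinetic hormone gene *Akh*, known from the corpora cardiaca outside the head capsule, had 2, 1, 0, 1 and 1 reads, and *Eh*, *RYa* and *CCAP* also stayed under 10 reads in each library.

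Clock genes were all detected, 14 of 14. *tim* was highest at 159, 172, 162, 165 and 176, and *vri*, which encodes a repressor of *Clk*, followed at 124, 123, 117, 122 and 127. The blue-light sensor gene *cry* had 65.1 (58.0 to 67.6) and the activator gene *Pdp1* 46.3 (39.0 to 49.7). *cyc* had 33.0 (32.0 to 36.4) and *per*, the partner of *tim*, 27.9 (25.0 to 29.4). The level of *tim* was thus above that of *per* in every library. The kinase genes *CkIIalpha*, *sgg*, *CkIIbeta* and *dco* had 22.1, 20.4, 15.0 and 12.4, and the repressor gene *cwo* had 19.0. The ubiquitin ligase genes *slmb* and *jet* had 9.66 and 8.99. *Clk*, the activator that pairs with *cyc*, was lowest at 1.93, 2.21, 2.47, 1.95 and 2.22, and no *Clk* library reached the lowest *jet* library.

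**Figure D2:**
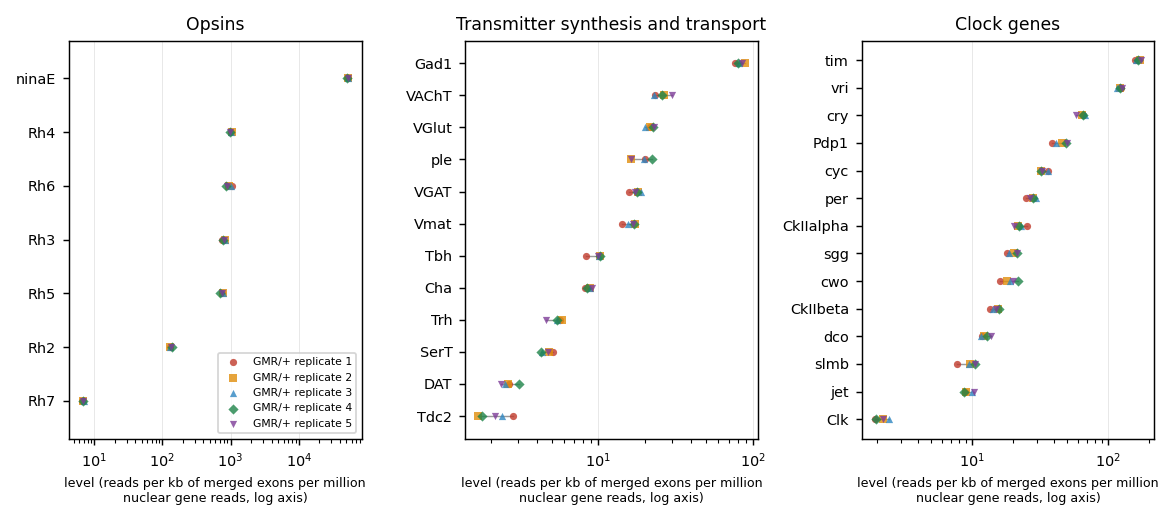
Level of the opsins (left), the genes of transmitter identity (middle) and the clock genes (right) in reads per kb of merged exons per 1000000 nuclear gene reads (log axes), with 1 point for each *GMR/+* library. *ninaE* stands at 50486 to 53233 while the other opsins lie between 6.63 and 1054, and *tim* leads the clock genes with 159 to 176.

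Glia, fat body and muscle each left a clear record. The 8 glial genes were all detected and summed to 1887 ± 113 (SD, n = 5), of which the glutamine synthetase gene *Gs2* held most, at 1593, 1383, 1418, 1511 and 1330. The ion pump subunit gene *nrv2* had 125, the glutamate transporter gene *Eaat1* 106 and the nuclear marker *repo* 17.9. In the fat body list 8 of 9 genes were detected. The storage protein gene *Lsp2* had 2624, 1310, 2022, 2121 and 1120, the iron carrier gene *Tsf1* 1585, 1270, 1525, 1328 and 1106, and the fatty acid synthase gene *FASN1* 511 (413 to 563). Replicates 2 and 5 were the low libraries of *Lsp2* and *Tsf1*. *Fbp2* had at most 2 reads in any library.

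Muscle genes, 15 of 18 detected, summed to 2208 ± 40.4 (SD, n = 5), the steadiest sum of the 27 lists, with a coefficient of variation of 1.83%. The actin gene *Act57B* led at 1141, 1115, 1186, 1135 and 1010, followed by the myosin light chain gene *Mlc2* at 313 (294 to 326) and the myosin binding gene *Mf* at 178 (135 to 195). The genes known from the flight muscle of the thorax were low or missing. *TpnC4* had 0, 0, 1, 0 and 0 reads and *fln* 0, 0, 1, 3 and 0, and *Act88F* stood at 13.2 against 1135 for *Act57B*.

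Few genes of the antenna and the mouthparts were detected. Of 19 genes of the list in the table, 6 were detected and 12 stayed under 10 reads in every library. *Obp19d*, an odorant-binding protein gene, had 978, 874, 902, 811 and 872 and made up nearly the whole sum of 898 ± 61.8 (SD, n = 5). The receptor partner gene *Orco* had 47, 27, 33, 37 and 33 reads. The antennal genes *Or22a*, *Obp83a*, *Obp83b*, *Ir8a*, *nan* and *iav* had at most 5 reads in any library. *lush* and *Or67d* had at most 9 reads, and the gustatory receptor genes *Gr64f*, *Gr43a*, *Gr21a* and *Gr63a* at most 7. These genes were not detected in these libraries, and the reason was not tested. Hemocyte genes were detected for 8 of 9, led by the prophenoloxidase genes *PPO2* at 63.9 and *PPO1* at 62.7 and by *Pxn*, a matrix peroxidase gene, at 25.6. *He* had 0, 0, 0, 1 and 1 reads.

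Genes of tissues outside the head had few reads. Midgut digestive enzymes summed to 3.54 ± 1.28, all but a trace of it from the maltase gene *Mal-A1*, with 93, 89, 34, 51 and 103 reads, and the protease genes *Jon25Bi* and *Jon99Ci* had no read. The ovary list summed to 2.03 ± 0.412, nearly all of it from the eggshell gene *Cp18* with 12 to 18 reads, and *osk*, *nos*, *bcd*, *vas*, *Vm26Aa*, *Vm26Ab*, *Cp15*, *Cp16* and *Cp38* had at most 2 reads in any library. The testis list summed to 1.48 ± 0.188, from *twe* with 10 to 23 reads and *betaTub85D* with 7 to 19. *Mst87F*, *bb8*, *can* and *fzo* stayed under 10 reads. The seminal protein gene *Acp36DE* had 1 read in all libraries together. *Irk3*, on the list for the Malpighian tubule, was detected at 10.4 (8.77 to 11.6). Each of these sums has n = 5 and is an SD.

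**Figure D3:**
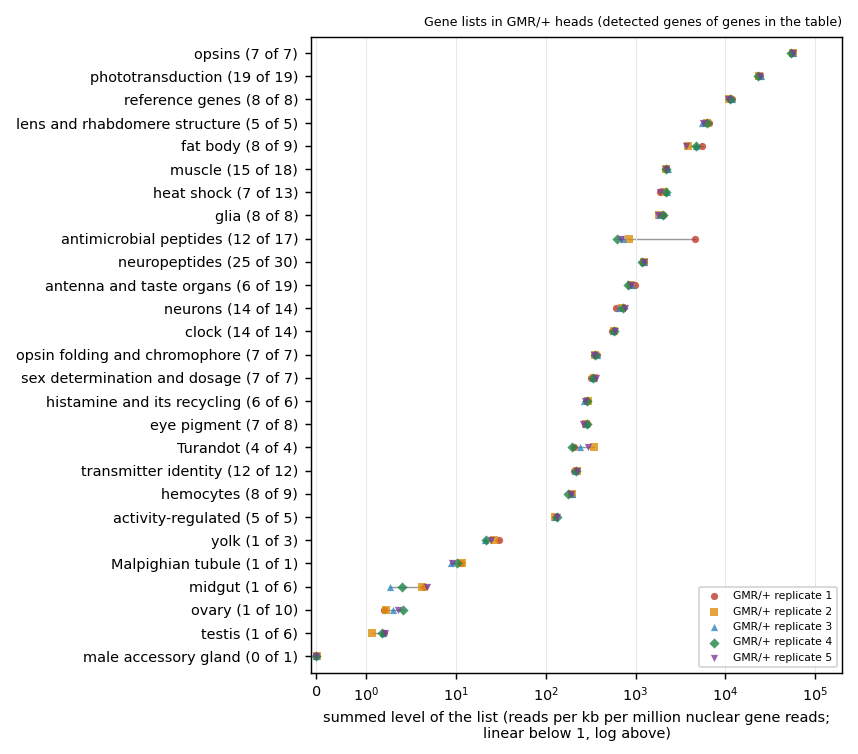
Summed level of each of 27 gene lists (reads per kb of merged exons per 1000000 nuclear gene reads, linear below 1 and log above), with 1 point for each *GMR/+* library and a line over their range. The brackets give the detected genes of the genes in the table. Opsins (53959 to 56993) and phototransduction (23264 to 24758) lead, the lists for midgut, ovary and testis lie below 5, and the antimicrobial peptides are the list with a lone high library, at 4613 against 617 to 850.

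Sex-specific splicing gave nearly the same reading in each library. In *dsx*, the sex switch gene, the junction to the male exon had 60, 61, 76, 74 and 71 reads, against 0, 1, 0, 1 and 0 for the female junction. The female junction thus took 0.581% of the 344 reads of both (exact 95% binomial interval 0.0705% to 2.08%, counting error only). In *Sxl*, the upstream switch gene, the junction out of the male exon had 24, 30, 30, 38 and 34 reads, and the junction that skips it had none. A count of 0 against 156 reads allows a share of up to 1.92%. The sex-specific choice of *tra*, the gene between them, could not be read, with 0 reads at its female junction and 3 at its non-sex-specific one. A common junction elsewhere in *tra* had 36, 44, 39, 39 and 33 reads. The dosage compensation RNA *roX1* had 17465, 18908, 18232, 18135 and 19773 reads and *roX2* 56, 54, 60, 48 and 58. The yolk protein genes *Yp1* and *Yp2* had 9 to 55 and 9 to 38 reads, while *Yp3* had 555, 530, 446, 411 and 464. The labels do not give the sex, so these counts stand beside no label.

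The 5 libraries were close to each other for most genes. Over the 6748 genes with a mean of at least 100 reads, the median coefficient of variation between the libraries was 7.20%, where counting alone would give 4.41%, and the 90th percentile was 13.9%. For the 169 genes with at least 10000 reads the median was 5.72% against 0.766% from counting, so more reads did not bring the spread down to the counting error. The steadiest genes had no spread beyond counting. Among 1341 genes at the lowest estimate, those with most reads were *eIF3-S9*, a translation initiation factor gene, with 5970, 6038, 5981, 5961 and 5992 reads, and *Pis*, a phospholipid synthase gene, with 5487, 5588, 5377, 5554 and 5565. *Karybeta3* (4742 to 4908 reads), *VhaPPA1-1* (4462 to 4647) and *Wbp2* (3963 to 4259) came next.

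Replicate 1 stood apart from the other libraries. Its log2 values correlated with those of the others at 0.985 to 0.990 across genes, whereas the other pairs reached up to 0.995. These values are across genes, which are not independent replicates. In replicate 1, 14 genes lay more than 2-fold above the median of the other libraries, against 1, 0, 4 and 0 in replicates 2 to 5, and 13 lay below 0.5 times that median, against 3, 10, 4 and 4. Among 25329 exons with a mean of at least 100 reads, 230 lay below 0.5 times that median in replicate 1, against 43, 22, 8 and 13, and 38 lay more than 2-fold above it, against 4, 8, 17 and 10. The 230 exons belong to 128 genes.

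A biological coefficient of variation (BCV, the spread that remains after the counting error) of at least 0.3 was found for 53 of the 6748 genes, or 0.785%, and 34 of the 53 kept it without replicate 1. Without that library 15 fell below 0.3, and 4 (*Dpt*, *Dro*, *DptB* and *CG3790*) had a mean under 100 reads and no estimate. Replicate 1 was the highest library of 23 of the 53 and replicate 5 of 15, while replicate 3 was the lowest of 17, replicate 5 of 16 and replicate 1 of 12. Antimicrobial peptide genes, which fly fat body and blood cells make in response to bacteria and fungi, led the list. *Dpt* had a BCV of 1.74 and 4836, 106, 110, 60 and 58 reads. *Dro* had 3485, 122, 102, 61 and 74 reads, *AttC* 13796, 698, 911, 301 and 460, and *Mtk* 2883, 119, 210, 71 and 108. *DptB* had 1113, 99, 75, 20 and 53, *AttB* 465, 145, 114, 78 and 180, and *Drs* 1068, 263, 226, 285 and 273. In all 7 genes replicate 1 was the high library, between 3.24 and 46.0 times the median of the 5. *AttA* (189, 42, 46, 38 and 44 reads), *CecC* (44, 14, 11, 11 and 11) and *IM1* (440, against 265 to 374 in the others) were highest there too, *IM1* by a small margin. The immune peptide genes *IM2* and *IM3* were highest in replicate 2, with 1328, 1470, 1056, 1063 and 1139 and 1588, 1661, 1301, 1251 and 1393 reads. *CecA1* had 10 reads in replicate 1 and at most 3 in the others, and *AttD*, *CecA2*, *CecB* and *Def* were under 10 reads in each library. The list summed to a level of 1496 on average, and to 717 without replicate 1. Without replicate 1 the BCV of *Drs* was 0.0717, but that of *AttC* was 0.464 and that of *Mtk* 0.438, so these varied among the other libraries as well. *CG4757*, annotated without a name of its own, had 1642, 315, 412, 434 and 374 reads, and its BCV without replicate 1 was 0.133.

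The genes of β-alanine use varied in another order. β-Alanine is joined to dopamine and histamine by the product of *e*. *e* had 1254, 645, 404, 1246 and 371 reads, *b*, which encodes the enzyme that makes β-alanine from aspartate, had 467, 277, 232, 455 and 140, and *CG3790*, the β-alanine transporter gene *Balat*, had 201, 83, 59, 195 and 52. The order of the libraries was the same in all 3 genes, with replicates 1 and 4 high and replicate 5 low. *CG2145* (9261, 4992, 4430, 9844 and 3804 reads) and *CG10062* (491, 266, 228, 521 and 228) had replicate 4 first and replicate 1 second. The other genes on the β-alanine list were steadier. *pyd3* had 274, 250, 222, 270 and 232 reads, and in *t*, *su(r)* and *CRMP* replicate 1 was not among the 2 highest libraries. This group, like those that follow, was formed after the values were seen and carries no test.

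Genes of one-carbon and purine metabolism, with the storage protein gene *Lsp2*, were low in replicates 2 and 5. The 14 genes of the list had a summed level of 1705, 1163, 1796, 1766 and 1071. *Gnmt*, a glycine methyltransferase gene, had 4880, 2611, 4281, 4131 and 2264 reads, the folate enzyme gene *Nmdmc* 760, 520, 1158, 1176 and 573, and the purine synthesis gene *ade3* 1852, 1140, 1841, 1731 and 928. *Lsp2* had 75431, 37989, 58837, 61311 and 32605. In these 4 genes replicates 2 and 5 were the lowest 2 libraries. *Prat* was an exception of the list, with 88, 82, 88, 89 and 91 reads.

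*CG8343*, the seventh gene of the ranking, belonged to another pattern. It had 41728, 33351, 16644, 23196 and 49643 reads. *CG9676* (10199, 8937, 4686, 6495 and 14366), *CG3088* (16078, 11487, 7446, 8755 and 19979), *CG8329*, *CG14277*, *CG32523* and *Obp19b* had the libraries in the same order, with replicate 5 highest and replicate 3 lowest. The odorant-binding protein gene *Obp56g* and *CG7299* had replicates 1 and 2 exchanged. The ratio of the highest to the lowest library lay between 2.68 and 3.37 in these 9 genes.

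In a further group replicate 1 was lowest and replicate 2 next. The ribosomal protein genes *RpLP2* (2455, 3195, 7843, 6973 and 7299 reads), *RpS10b* (4973, 7386, 15834, 14434 and 16938) and *RpL22* (5129, 6808, 12736, 9268 and 10047) were in it, with the tachykinin gene *Tk* (85, 89, 258, 204 and 223), the copper transporter gene *Ctr1B*, *CG5010*, *chrb*, *CG1648* and *l(1)G0004* (37, 95, 163, 187 and 140). Most ribosomal protein genes were even: the median ratio of the highest to the lowest library was 1.16 over the 81 detected, and 8 reached 1.5, of which 7 had their lowest value in replicate 1. The exon table shows that the low values did not run along the whole gene. The segment X:19598433-19598755 of *RpS10b* had 3819, 4502, 4098, 4311 and 4068 reads, while the exon X:19598433-19599377 that contains it had 4688, 7144, 15821, 14109 and 16846. In *RpL18* the segment 3L:7240556-7240777 had 1822, 2003, 2467, 1968 and 1862 reads, and the exon 3L:7239901-7240777 around it had 9340, 20048, 22299, 21741 and 21412. A separate exon of *RpL18* (3L:7240855-7240941) was even as well, with 248, 293, 320, 253 and 236 reads. The 5 mitochondrial genes with most reads were highest in replicate 1 as well, *mt:lrRNA* with 106692, 78979, 38634, 53410 and 48235 reads. The study's methods state that its RNA samples were checked to have an integrity number above 8. The part of RNA quality or library preparation in these differences was not tested.

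**Figure D4:**
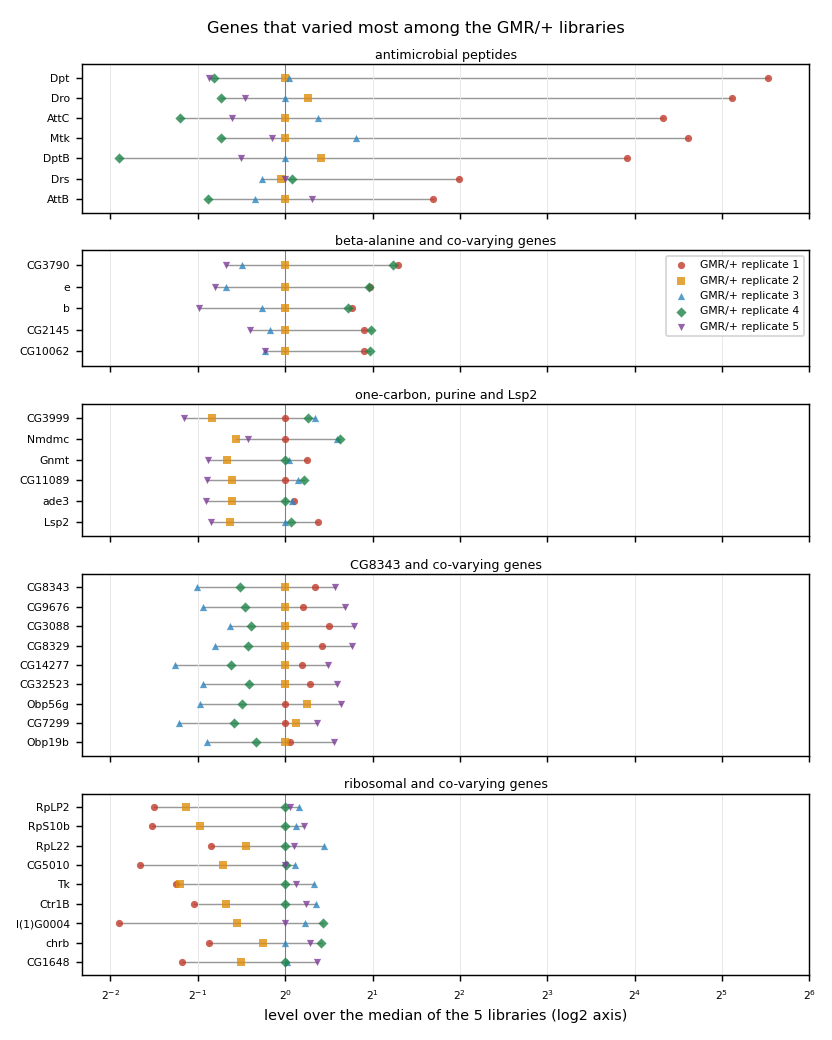
Level of 36 genes from the group of most variable genes, divided by the median of the 5 *GMR/+* libraries (log2 axis), with 1 point for each library. Replicate 1 is the high library of the antimicrobial peptide genes (3.24 to 46.0 times the median) and the low library of the ribosomal group, while the *CG8343* group is lowest in replicate 3 and highest in replicate 5.

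Splice junctions were counted from reads that cross an intron. The table holds 1105894 junctions, of which 454033 had a read in a *GMR/+* library, and 356266 of these (78.5%) rested on 1 read. The junction reads of a library numbered 3166483 to 3244363. At least 10 reads in each library were found for 19834 junctions, of which 19576 are introns of the annotation and 258 are not. Of 60508 annotated introns, 45987 (76.0%) had at least 1 read. Fly introns are mostly short, and the detected ones had a median length of 77 bases, with 55.5% under 100 bases. Long introns were found too, 414 of them over 10000 bases. The longest was an intron of *CG45782* of 116882 bases with 22, 20, 21, 24 and 23 reads, followed by an intron of 98126 bases in *rdgA*, a diacylglycerol kinase gene of phototransduction, with 25, 27, 22, 27 and 34.

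The junction with most reads belonged to *ninaE* (3R:19887224-19887398, 343368, 320817, 338916, 331148 and 356416 reads). The other annotated introns of *ninaE* had 41667 to 81117 reads in a library. Reads were therefore spread unevenly along this gene, and the reads at 1 junction do not measure a gene's level. *Nplp2* (56173, 61825, 47359, 58424 and 48080 reads), *Arr1* (34307, 30776, 31609, 29088 and 31138) and the *Adh* junction followed. *RpL23A* had 8309 in replicate 1 against 16784 to 23307 in the other libraries, the same low library as in its gene reads. The rest of the first 10 genes were *Arr2* (81580 reads over the 5 libraries), *Desat1* (75960), the ATP synthase gene *CG1746* (65057), the aldolase gene *Ald* (58647) and the malate dehydrogenase gene *Mdh2* (55196).

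Most splice sites had 1 partner. Of 16154 5′ splice sites with at least 100 reads over the 5 libraries, 1072 (6.64%) joined a second 3′ site with at least 10% of the reads of the site. Of 16186 3′ splice sites, 1040 (6.43%) joined a second 5′ site. The distances differed between the 2 kinds. When the 3′ ends differed, 243 pairs lay under 30 bases apart, 100 of them exactly 3 bases apart, and 218 of the 243 were a multiple of 3 apart, which keeps the reading frame in coding sequence. When the 5′ ends differed, 104 pairs lay under 30 bases apart, of which 7 were 3 and 11 were 4 bases apart and 76 were a multiple of 3. The shorter intron was the more used one in 50.7% of the pairs with different 3′ ends and in 44.5% of those with different 5′ ends. Both junctions were annotated in 88.7% and 88.4% of the pairs. The median distance was 491 bases with different 3′ ends and 866 with different 5′ ends. Skipped exons were not told apart from alternative sites here, and 1 junction can belong to pairs of both kinds.

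For the typical pair with many reads, the share of the less used site varied little more than counting alone would give. For the 367 pairs with at least 100 reads in each library, the median SD was 3.08 percentage points, where counting alone would give 2.93, and 18 pairs exceeded 2 times their counting SD. *Lsd-2*, a lipid droplet gene, used its minor 5′ site for 32.3, 32.5, 32.7, 31.4 and 32.4% of the reads. *Wbp2* used it for 33.2, 35.2, 33.6, 34.1 and 32.8%. The cell adhesion gene *Fas1* had 30.2, 32.7, 26.1, 31.4 and 29.5%, *CG14762* 18.8, 21.6, 21.8, 21.8 and 21.8%, and *CoVIIc*, a cytochrome oxidase subunit gene whose pair of 5′ sites is 5 bases apart, 21.8, 19.3, 22.5, 19.3 and 22.1%. None of these 5 genes moved by more than 7 points.

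Among alternative 3′ sites, *Ald* used the minor one for 23.4, 25.0, 24.9, 23.1 and 27.1% of the reads and *Atpalpha*, the sodium pump gene, for 26.9, 22.9, 24.2, 23.9 and 24.3%. *CG9813*, with sites 33 bases apart, had a mean of 26.3% ± 1.17, *Fas1* 29.0% ± 2.31 and *CG10186* 24.4% ± 2.09 (SD, n = 5 each). The minor junction of *Fas1* here, 3R:16636577-16636985, is also its minor junction among the 5′ sites above. It had 350, 400, 320, 364 and 380 reads and passes over both major sites, 3R:16636774 and 3R:16636811. Among the 12 pairs described here, chosen by their number of reads, those of *Mf*, a muscle gene, varied most. Among all pairs those of *CG6767* varied about as much. Their SD was 10.2 percentage points at the 5′ site and 9.98 at the 3′ site, against 11.7 and 8.02 for *Mf*. The 2 pairs of *CG6767* have a junction in common. The minor 5′ site of *Mf* (3R:15173980 against 3R:15174136, joined to 3R:15172831) took 39.4, 30.2, 12.6, 15.1 and 15.5% of the reads. The minor 3′ site of *Mf* took 48.2, 36.6, 28.6, 31.6 and 29.7%. The reads behind this are few in replicate 1, with 172, 513, 1312, 1010 and 1307 at the shared major junction. The outer exons of *Mf* were even, with 2028, 2311, 1957, 1870 and 2103 reads at 3R:15170323-15171374, while the inner exon 3R:15174137-15174343 had 833, 1498, 3481, 3061 and 3715. The low libraries of the inner exon were the same as in the ribosomal group.

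Mutually exclusive exons of *Mhc*, the muscle myosin heavy chain gene, had 1 dominant variant in each group. Its share varied most for exon 11, from 77.2% to 85.9% among the libraries. 1 variant held 99.7% ± 0.161 of the reads of exon 3, 92.5% ± 0.711 of exon 7, 85.8% ± 1.10 of exon 9, 83.4% ± 3.61 of exon 11 and 88.7% ± 1.69 of exon 15 (SD, n = 5 each). All 5 annotated variants of exon 11 were read, the second most used with 119 of 1230 reads over the libraries. Of the 4 variants of exon 7, 1 had no read in 4129, which allows a share of up to 0.0727%. *Dscam1*, a neuronal adhesion gene with 3 large clusters of exclusive exons, showed no such dominance. At the junction to the following shared exon, all 12 variants of exon 4 were seen in 125 reads, 39 of 48 variants of exon 6 in 116 reads and 29 of 33 variants of exon 9 in 138 reads. At the junction to the preceding shared exon, 11, 28 and 23 variants were seen in 92, 57 and 54 reads. The most used variant of exon 9 had 28 reads at its following junction and the next 26. With so few reads an unseen variant cannot be called absent.

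**Figure D5:**
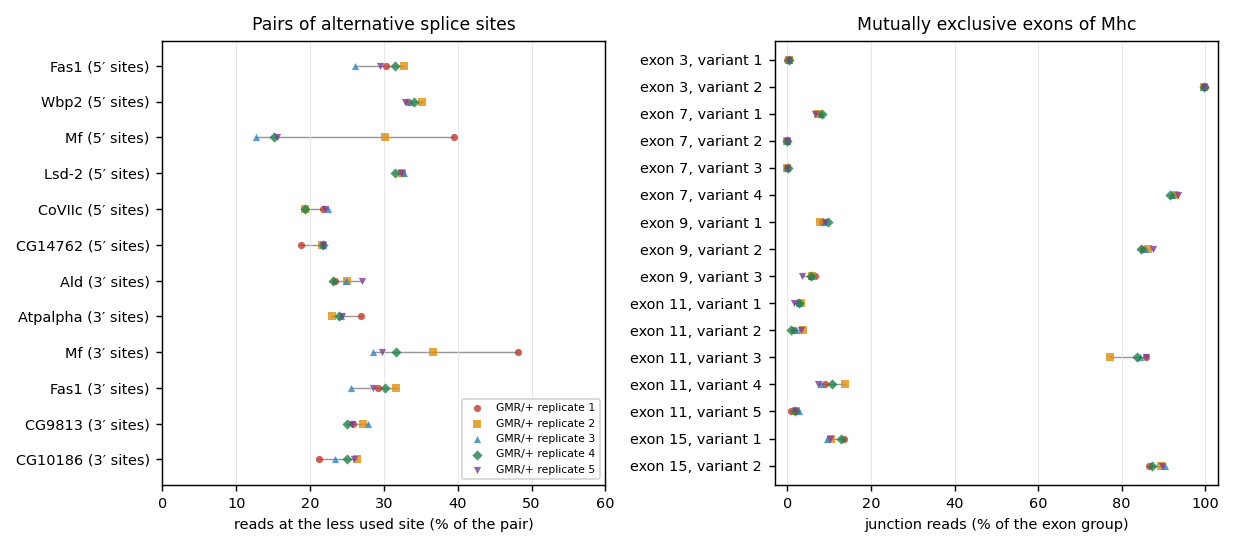
Share of reads at the less used site of 12 pairs of alternative splice sites (left, % of the reads of the pair) and share of reads at each variant of the mutually exclusive exons of *Mhc* (right, % of the reads of the exon group), with 1 point for each *GMR/+* library. *Mf* spreads between 12.6% and 39.4% at its 5′ sites, while 1 variant of each *Mhc* exon group holds more than 75% of the reads in every library. Both *Fas1* pairs have the same minor junction.

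In *tim*, the junction of an intron called *tim-tiny* had 115, 128, 125, 120 and 103 reads and that of a nearby intron called *ctrl* 304, 416, 304, 311 and 334. Another site of *tim* had a major junction outside the annotation. The 3′ site at 2L:3506757 was joined to an unlisted 5′ site at 2L:3507720 by 88, 95, 93, 77 and 97 reads and to the annotated site at 2L:3507765 by 71, 72, 44, 78 and 82. In 4 libraries the unlisted site was ahead and in replicate 4 the annotated one was level with it.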

How the data were processed

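RNA from whole heads was sequenced as 15 libraries, prepared with the Lexogen SENSE mRNA-Seq kit on a NextSeq 500, of which the 5 labelled *GMR/+* were used. Per the submitters' processing notes, reads were aligned with STAR 2.5.3a to BDGP6. The authors filtered out reads of ribosomal RNA and mitochondria, drew the same number of alignments from every library with PORT, and deposited counts of whole reads per gene, exon and splice junction. The exon counts of every library sum to 28597628. Resampling removes differences in depth, and 15 mitochondrial genes still carry reads. They were left out of the levels. No p-value was computed, because there is 1 group.

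Genes were matched by identifier to the Ensembl release 115 annotation (assembly BDGP6.54), where 13049 of 13259 were found. Both ends of the interval in the table lay 302 bases outside the annotated gene for 12871 of these, and coordinates are those of the annotation for genes and of the tables for junctions and exons. Levels divide reads by the merged exon length. For 18 nuclear genes no length was had. Counts were normalized by TMM in edgeR 4.0.16 (R 4.3.3), and the BCV is the square root of the dispersion that estimateDisp gave without a prior for genes with a mean of at least 100 reads. In data simulated for 6748 genes, 200 of them variable with a coefficient of 0.6, a BCV of at least 0.3 was called for 182 of the 200 and for 0 of the others. The others were given a coefficient far below 0.3, which fixed their result in advance. The simulation therefore does not tell how genes near 0.3 are called. DESeq2 1.42.0 was used for alternatives. Other values were computed in Python 3.11.15 with numpy 2.4.6 and pandas 2.3.3, and figures drawn with matplotlib 3.10.9.

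The libraries, the gene lists and the genes named were chosen with earlier results of these data known. Named were the 15 highest genes, the opsin, transmitter and clock genes, the 3 highest of each other list and its members under 10 reads in every library, the 12 highest and 5 lowest BCVs (ties by reads), the 10 genes with most junction reads, 6 pairs of alternative sites of each kind, and sex-specific and mutually exclusive exons. The variable groups, *RpL18*, *Adh* and the unlisted *tim* site were chosen after their values were seen. Alternatives were other minimum counts, transcript lengths and normalizations, introns of the annotation only, and leaving out each library. Of 284 genes on the lists, 266 are in the table and the rest are not analysed here. Splice site dinucleotides and site scores are not analysed here.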

Additional observations from a re-analysis of the deposited data

Results flagged for a closer look

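In a group of 5 values, a library was taken to stand alone when its gap to the nearest other value was over 0.71 of the whole range (Dixon's 95% critical value). Chance flags about 1 in 20 groups. The 17 that passed, of 174 groups, cannot be read against that rate, because 8 of them are genes named for their high BCV and another is the sum of the list that holds 7 of these. Antimicrobial peptides made up most of the large gaps, with replicate 1 as the lone high library. The gap took 0.989 of the range for the level of *Dpt*, 0.982 for *Dro*, 0.956 for *AttC*, 0.951 for *Mtk*, 0.929 for *Drs*, 0.928 for *DptB* and 0.742 for *AttB*, and 0.942 for the summed level of the antimicrobial peptide list. *CG4757* had replicate 1 alone at the high end too, with 0.91.

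Other lone libraries had small ranges. Replicate 4 was low for the peptide genes *Ms* (0.849) and *Crz* (0.804), and replicate 1 was low for *Tbh* (0.807). Replicate 3 was low for *Desat1* (0.734) and, in spite of almost no spread, for *Pis* (0.779), and replicate 5 was low for the pigment gene *pr* (0.718). Replicate 1 was low for the share of the minor 5′ site of *CG14762* (0.941). Replicate 2 was low for the summed level of the testis list (0.767), which rests on few reads.

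Reads of the mitochondrial genes, which were left out of the levels, were still present in the gene table. They made up 1.6% of the gene reads on average, between 1.12% and 2.20% in single libraries, and *mt:ATPase6* had 65210, 53092, 32985, 46288 and 51066 reads.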

How the results depend on the processing

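No paired analysis was possible because 1 group is described and the labels give each library a number of its own. The number of detected genes was 8747 to 8751 without 1 library, the share of the 10 genes with most reads 16.3% to 16.5%, the 15 highest genes stayed 15 of 15, and 21 lists kept a summed level of at least 100. Per kb, the 10 highest genes held 20.8% in place of 16.4%, and without length scaling 9 of the 15 highest genes stayed among the first 15. The median coefficient of variation was 8.54% with a mean of at least 10 reads in place of 7.20%, and 6.37% to 7.31% without 1 library, lowest without replicate 1. Genes with a BCV of at least 0.3 numbered 40 to 69 in place of 53 without 1 library. Of the 53, 34 kept 0.3 without replicate 1, 15 did not, and 4 had too few reads for an estimate. Junctions numbered 37702 with at least 1 read and 6689 with at least 50 reads in each library, in place of 19834, and 20189 to 20571 without 1 library. The 1072 5′ sites became 249 with at least 500 reads, 711 with a second share of at least 20%, 955 with annotated introns only, and 921 to 949 without 1 library. The 1040 3′ sites became 225 with at least 500 reads, 695 with a second share of at least 20%, 923 with annotated introns only, and 878 to 917 without 1 library. Of 506 settings tried for single genes and lists, 14 moved a value by over 1 SD of the libraries or, for a BCV, past 0.3, 10 of them list sums under the length of the longest transcript, of 27 lists. Within that limit, leaving out replicate 1 took the antimicrobial peptide sum to 717 in place of 1496 and the BCV of *AttC* to 0.46 in place of 1.46, of *Mtk* to 0.44 in place of 1.45 and of *AttB* to 0.33 in place of 0.68. The BCV of *CG4757* went to 0.13 in place of 0.72, of *Drs* to 0.072 in place of 0.69 and of *l(1)G0004* to 0.27 in place of 0.55, past 0.3. With only the genes of at least 10 reads in each library, the testis sum was 0.632 in place of 1.48. Including the mitochondrial genes, an alternative chosen after seeing the data, moved none of the 27 sums. Splice site dinucleotides and site scores were not run. Depth limits genes and exclusive exons with few reads.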

Other observations

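The heat shock list summed to 2043 ± 162 (SD, n = 5), nearly all of it from the constitutive chaperone genes *Hsc70-4*, with a level of 1277, 1354, 1465, 1393 and 1232, and *Hsp83*, with 534, 616, 702, 710 and 567. The small heat shock gene *Hsp26* followed at 32.8 (28.7 to 37.4). All 6 *Hsp70* genes in the table stayed under 10 reads in every library, among them *Hsp70Aa* with 4, 2, 1, 5 and 6. The copies of *Hsp70* are nearly identical, so reads may have been lost or split between them. Turandot stress genes were uneven, with *TotA* at 137, 177, 143, 131 and 163 and *TotC* at 50.1, 137, 79.7, 51.7 and 104. *TotM* was next at 12.2, 24.6, 8.48, 7.61 and 20.2, and replicates 2 and 5 were the highest libraries of all 3 genes. The BCV of *TotC* was 0.42. Among activity-regulated genes, *Arc1* had 86.8, 85.3, 84.8, 86.9 and 87.6, *kay* 29.1 and *Arc2* 9.05. The genes often used as references differed in level. After *Ef1alpha48D* came *alphaTub84B* at 1697 (1614 to 1785) and *Act5C* at 1217 (1193 to 1239), and *Tbp* was at 13.9.

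Junctions outside the annotation took 3.87% ± 0.102 (SD, n = 5) of the junction reads, and 56.7% of these reads lay at junctions with 1 read. *ninaE* alone held 8.20% of them. Its unlisted junction with most reads, of 1069 bases (3R:19886567-19887635), had 2648, 1752, 2121, 2622 and 2327 reads, and another of 249368 bases that reaches beyond the gene had 13, 12, 16, 10 and 11. Outside *ninaE*, the unlisted junctions with most reads lay in *vig* (276, 347, 247, 399 and 314 reads), *CG7834* (245, 264, 251, 227 and 227) and *CG6409* (173, 173, 223, 162 and 154).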
